A study of Rattus norvegicus with 16 samples.

Results

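The genes described here are 32 astrocyte genes, the markers of astrocytes together with genes for their transport and metabolism. They were chosen by name from a list of known astrocyte genes, not by their values, although results of these data were known when the list was made. All 32 were found among the 33294 genes of the count table, and all 32 were among the 17856 genes kept after a filter on low counts. They were measured in RNA-seq libraries of 16 rats from tissue given in the labels as the central amygdala, an output nucleus of the amygdala with mostly GABAergic neurons. The animals were offspring exposed around birth to fentanyl, a synthetic opioid (6 males and 2 females), or to saline (6 males and 2 females). As adults, both exposures went through sessions that the labels name by an abbreviation only, and the tissue is from 1 day later. The labels give no strain, no dose, no exact age and no litter, so p-values measure the spread between these animals only.

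Astrocytes are glial cells that take up glutamate and potassium released by neurons, convert glutamate to glutamine, and cover synapses and blood vessels with fine processes. They are joined to each other by gap junctions and carry water channels on the endfeet that touch vessels. They also make serine from glucose, store glycogen and secrete lipoproteins and matrix proteins. In injury or inflammation they raise intermediate filament proteins such as the one encoded by Gfap.

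Libraries are named here by sex, exposure and the number in their library name. Fentanyl males have the numbers 1 to 6, and saline males the numbers 1, 2 and 9 to 12. Fentanyl females have 1 and 2, while saline females have 10 and 11. The labels do not say what the numbers mean. Both saline females therefore carry numbers above those of both fentanyl females, and exposure and number set cannot be told apart in females.

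The window from 250 bases upstream of the start of a gene to that start was read from RefSeq sequences of the rat assembly GRCr8 for 28 of the 32 genes. The other 4, Agt, Clu, F3 and Sox9, were not analysed here for sequence. GRCr8 is newer than rn7, the build named for the counting, so its coordinates apply to the sequence only. Of the windows below, the first belongs to the gene with the widest range of levels over the 16 libraries, the second to the gene with the narrowest, and the third to the gene with the smallest p in females. The 3 were chosen after these values were seen. Each runs 5′ to 3′ on the strand of its gene and ends 1 base before the start, and capitals mark the only matches to 4 motifs, the NFI palindrome, AACAAT (SOX9), TTCNNNGAA (STAT) and TGANTCA (AP-1).
Slc1a2, chr3:109459859-109460108, plus strand: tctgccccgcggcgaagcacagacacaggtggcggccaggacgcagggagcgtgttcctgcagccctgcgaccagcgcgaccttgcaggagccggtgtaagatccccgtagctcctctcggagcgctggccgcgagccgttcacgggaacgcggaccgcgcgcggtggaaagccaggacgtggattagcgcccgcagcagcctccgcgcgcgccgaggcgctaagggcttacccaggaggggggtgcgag
Ppp1r3c, chr1:243878528-243878777, minus strand: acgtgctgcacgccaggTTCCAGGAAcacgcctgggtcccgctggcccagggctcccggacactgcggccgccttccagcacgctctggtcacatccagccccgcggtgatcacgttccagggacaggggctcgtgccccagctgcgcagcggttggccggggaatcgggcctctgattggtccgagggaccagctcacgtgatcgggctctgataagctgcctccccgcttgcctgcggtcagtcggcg
Phgdh, chr2:188624790-188625039, minus strand: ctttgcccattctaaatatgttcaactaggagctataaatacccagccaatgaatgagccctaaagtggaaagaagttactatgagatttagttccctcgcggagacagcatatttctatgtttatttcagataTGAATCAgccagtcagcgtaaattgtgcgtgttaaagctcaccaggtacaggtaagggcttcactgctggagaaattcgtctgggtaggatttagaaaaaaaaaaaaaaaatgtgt

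The window of Slc1a2 holds none of the 4 motifs and is 71.2% G and C. That of Ppp1r3c holds a STAT match whose first base lies at -233 from the start, and is 69.2% G and C. That of Phgdh holds an AP-1 match at -116 and is 38.8% G and C, against a median of 54.8% over the 28 windows of the astrocyte genes and 51.2% over all 33469 windows of the table. The motifs were searched on both strands and each on its own, so letters can count for more than 1 motif, and a match is a string of letters only. STAT letters were in 3 of the 28 windows (10.7%; Ppp1r3c, Ntsr2 and Acsbg1) and in 7.67% of all windows. AP-1 letters were in 2 (7.14%; Phgdh and Gja1) and in 6.34% of all windows. SOX9 letters were in 2 (Mlc1 and Sparcl1) and in 10.3% of all windows, and NFI letters in 0 and in 0.732%. The short E-box CANNTG, which is not capitalised above, was in 16 of the 28 windows (57.1%) and in 65.5% of all windows.

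Total counts per library ranged from 12879701 to 22426428, and mitochondrially encoded genes took 8.44% to 17.7% of them, with the highest share in fentanyl male 2. That library held the highest level of 18.6% of all genes tested and the lowest of 18.2%, more than any other library. Raw counts of the 32 astrocyte genes ran from 69 to 54935 per library. Levels below are CPM, read counts divided by the size of the library, scaled for library composition but not for transcript length, so they compare libraries and not genes. Of 10 genes listed as marks of central amygdala neurons, 9 were found, at unlike levels. Sst was at 41.4 to 206 CPM, Prkcd at 11.2 to 33.3, Calcrl at 9.12 to 36.5 and Nr2f2 at 4.75 to 33.3 CPM. Lower minima were those of Nts (3.06 to 29.4 CPM), Cartpt (1.07 to 68.9), Dlk1 (0.762 to 39.8) and Crh (0.521 to 17.2). Gal was at 0 to 2.22 CPM. In tissue such as this, fewer astrocytes and less RNA per astrocyte cannot be told apart.

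Summed over the 32 genes, levels were 10227 to 11958 CPM in fentanyl males against 8381 to 13894 CPM in saline males. In females the sums were 8817 and 7936 CPM after fentanyl and 11228 and 13055 CPM after saline. The fentanyl males lie within the range of the saline males, whose numbers 1 and 2 (8483 and 8381 CPM) were below every fentanyl male and whose numbers 11 and 12 were above them. Both fentanyl females lie below both saline females. The heat map of the 32 genes shows each gene in each library.

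**Figure D1:**
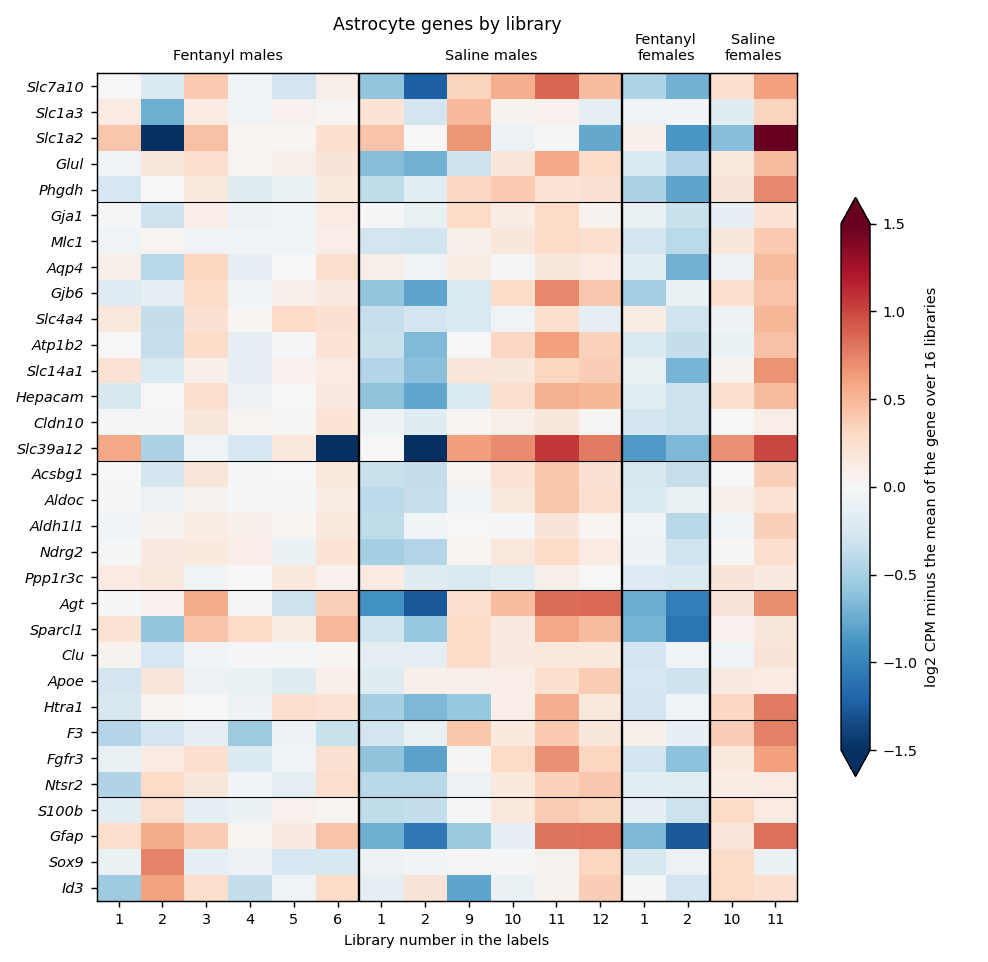
Level of each of the 32 astrocyte genes (rows, grouped by role) in each of the 16 libraries (columns, named by their library number), as log2 CPM minus the mean of that gene over all libraries. Colours are cut at -1.5 and 1.5. Saline males 1 and 2 and both fentanyl females are mostly blue (below the mean of the gene), and saline males 10 to 12 and saline female 11 mostly red.

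The comparison of 8 fentanyl with 8 saline offspring, with sex as a term, asks which transcripts differed by exposure in adulthood. None of the 32 astrocyte genes passed an adjusted p of 0.05 in edgeR's quasi-likelihood test, where 0.0784% of all genes tested did. At an unadjusted p under 0.05 there were 4 (F3, Phgdh, Slc39a12 and Apoe), all with lower means after fentanyl, where 7.27% of all genes had such a p. Of the 32 log2 fold changes 29 were below 0, against 52.3% of all genes, and their median was -0.16, against -0.01 for all genes. For none of the 32 were all 8 fentanyl libraries outside the range of the 8 saline ones (0.101% of all genes). Other tools called some of them: DESeq2 called F3 lower (0.196% of all genes were called lower), and limma voom with sample quality weights called Apoe, F3, Mlc1, Phgdh and Slc39a12 lower (1.97% of all genes).

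Among the 3 receptors, F3 had the smallest p of the 32 genes. F3 encodes tissue factor, the cell surface receptor that starts blood coagulation and that astrocytes carry in brain. Its level had a lowest value of 7.68, a median of 9.67 and a highest value of 11.8 CPM in the 8 fentanyl libraries, and a lowest value of 9.27, a median of 13.5 and a highest value of 18.9 CPM in the 8 saline libraries. All 8 fentanyl libraries were below the saline median, and the groups overlapped through saline males 1 and 2, at 9.27 and 10.4 CPM. The means were 9.59 ± 1.35 CPM after fentanyl and 13.4 ± 3.0 CPM after saline (SD, n = 8 each). The log2 fold change was -0.48 ± 0.11 (SE), with an adjusted p of 0.210. Leaving out any 1 of the 16 libraries gave -0.53 to -0.43, with adjusted p of 0.0796 to 0.428. The raw counts behind these levels were 120 to 356 per library. Fgfr3, a receptor for fibroblast growth factors, had -0.23 ± 0.20, and Ntsr2, a neurotensin receptor, -0.07 ± 0.14.

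The 5 genes of glutamate and amino acid handling all had log2 fold changes below 0. Phgdh, the first enzyme of serine synthesis, had a lowest value of 35.1, a median of 55.2 and a highest value of 67.7 CPM after fentanyl, against 46.7, 71.0 and 100.4 CPM after saline. All 8 fentanyl libraries were below the saline median, the 2 fentanyl females were below every saline library, and the ranges overlapped through saline males 1 and 2. The means were 54.5 ± 11.3 CPM after fentanyl and 71.1 ± 16.2 CPM after saline, a log2 fold change of -0.39 ± 0.15 (adjusted p = 0.605). Slc7a10, the transporter that exchanges serine and other small neutral amino acids, had 12.2, 18.1 and 26.0 CPM after fentanyl (lowest, median and highest), against 8.46, 26.2 and 36.0 CPM after saline, and a log2 fold change of -0.42 ± 0.24. Here too all 8 fentanyl libraries lay below the saline median, while the lowest library was saline male 2. Slc1a2, the main glutamate transporter of the forebrain, had -0.32 ± 0.33 and Slc1a3, the other astrocyte glutamate transporter, -0.13 ± 0.13. Glul, the enzyme that makes glutamine from glutamate, had -0.05 ± 0.18.

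Of the 10 water, ion and gap junction genes 9 were below 0. The zinc transporter gene Slc39a12 had the largest fitted difference of the 32: its lowest, median and highest values were 4.2, 9.98 and 19.2 CPM after fentanyl, against 4.0, 20.7 and 26.7 CPM after saline. Saline male 2 held the lowest value of all, at 4.0 CPM, and fentanyl male 6 the next, at 4.2 CPM. The means were 10.6 ± 4.65 CPM after fentanyl and 19.1 ± 7.39 CPM after saline, a log2 fold change of -0.86 ± 0.33 (adjusted p = 0.591). The connexin genes of astrocyte gap junctions had close values, with -0.18 ± 0.09 for Gja1 and -0.18 ± 0.19 for Gjb6. So did Aqp4, the endfoot water channel, with -0.18 ± 0.13. Mlc1, a membrane protein of endfeet, had -0.21 ± 0.11, and Hepacam, the adhesion protein that binds it, -0.16 ± 0.18. Atp1b2, a sodium pump subunit, had -0.20 ± 0.16, the urea transporter gene Slc14a1 -0.21 ± 0.17, and the claudin gene Cldn10 -0.04 ± 0.08. The sodium bicarbonate cotransporter gene Slc4a4 was the exception, with 0.09 ± 0.13.

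All 5 genes for secreted proteins were below 0. Apoe, the main apolipoprotein of brain, had a lowest value of 1758, a median of 1973 and a highest value of 2477 CPM after fentanyl, against 1919, 2353 and 2842 CPM after saline. The highest fentanyl library was fentanyl male 2 and the lowest saline library saline male 1, and 7 of 8 fentanyl libraries were below the saline median. The means were 2020.0 ± 255 CPM after fentanyl and 2381 ± 262 CPM after saline, a log2 fold change of -0.24 ± 0.10 (adjusted p = 0.631). Agt, the precursor of angiotensin, had -0.41 ± 0.29, with 52.2 to 156 CPM after fentanyl and 44.3 to 192 CPM after saline. Clu, a secreted chaperone, had -0.16 ± 0.08, Sparcl1, a matrix protein that acts on synapses, -0.21 ± 0.21, and the secreted protease gene Htra1 -0.09 ± 0.18.

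The 5 metabolic genes had the smallest differences of the roles, with a median of -0.03. Acsbg1, an acyl-CoA synthetase, had -0.16 ± 0.12, the glycolytic enzyme gene Aldoc -0.10 ± 0.11, and Aldh1l1, a folate enzyme used as a general astrocyte marker, -0.03 ± 0.10. Ndrg2, a cytoplasmic astrocyte marker, and Ppp1r3c, a subunit that directs a phosphatase to glycogen, had 0.00 ± 0.12 and 0.00 ± 0.08. The remaining 4 genes were also below 0. Gfap, the intermediate filament gene, had -0.15 ± 0.31, S100b, a calcium-binding protein, -0.15 ± 0.13, Sox9, the transcription factor of astrocyte identity, -0.08 ± 0.13, and Id3, an inhibitor of helix-loop-helix factors, -0.02 ± 0.17.

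**Figure D2:**
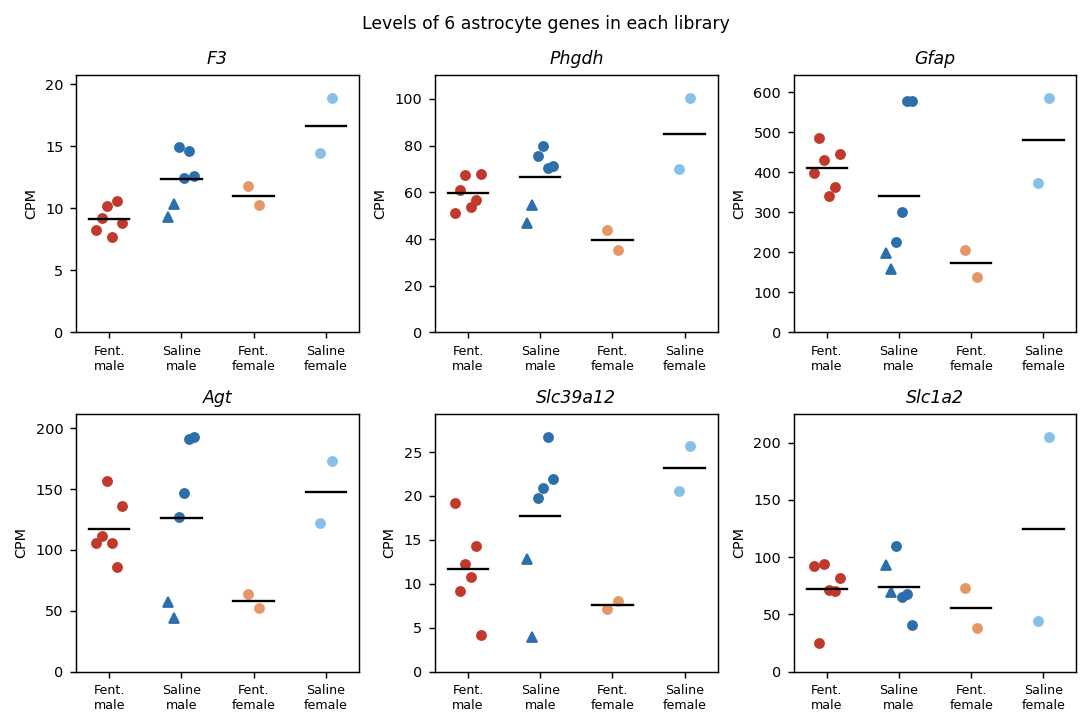
Levels (CPM, linear axes from 0) of F3, Phgdh, Gfap, Agt, Slc39a12 and Slc1a2 in each library by group, with the group mean as a black line. Triangles are saline males 1 and 2; for Gfap and Agt they lie below all 6 fentanyl males, and for F3 at 9.27 and 10.4 CPM they lie within the fentanyl males.

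In males alone, 6 against 6, the astrocyte genes stood close to even. None was called (0.0392% of all genes tested were), 1 had an unadjusted p under 0.05 (4.13% of all genes), 21 of 32 were below 0 (51.7% of all genes), and the median was -0.03. F3 was the gene with the smallest p, at 7.68, 9.02 and 10.6 CPM in fentanyl males (lowest, median and highest), against 9.27, 12.5 and 14.9 CPM in saline males. Its means were 9.12 ± 1.11 CPM after fentanyl and 12.4 ± 2.26 CPM after saline (SD, n = 6 each), and its log2 fold change was -0.44 ± 0.13 with an adjusted p of 0.739. Voom called it in males, where it called 0.202% of all genes lower. The next smallest p were those of Slc4a4, with 0.23 ± 0.14, and Slc39a12, with -0.61 ± 0.36. Without fentanyl male 2 the median of the 32 was -0.01 and none was called, and without saline male 11 or saline male 12 it was 0.04 and 0.03.

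The saline males were not alike by library number. For 26 of the 32 genes both of saline males 1 and 2 lay below all of saline males 9 to 12, which held for 22.2% of all genes tested, and for none did both lie above. Fentanyl males were therefore set against each number set on its own, in the same kind of fit. Against saline males 1 and 2, 28 of the 32 genes were above 0, with a median of 0.37, and 9 rose in fentanyl males, where 3.34% of all genes were called higher. Against saline males 9 to 12, 26 were below 0, with a median of -0.20, and none was called (0.4% of all genes were, in either direction). In all, 23 genes were higher against the one set and lower against the other. The fentanyl males are the same 6 libraries in both comparisons, so the opposite signs are not independent of the difference between the saline sets. Whether the number sets mark a batch, litters or a dissection was not tested.

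The 9 genes that rose against saline males 1 and 2 were Agt, Gfap, Slc7a10, Glul, Fgfr3, Hepacam, Gjb6, Htra1 and Ndrg2. Agt was 85.7 to 156 CPM in the 6 fentanyl males, 56.9 and 44.3 CPM in saline males 1 and 2, and 127 to 192 CPM in saline males 9 to 12. Its log2 fold change was 1.202 ± 0.23 against the first set (adjusted p = 0.0176) and -0.48 ± 0.17 against the second (adjusted p = 0.216). Gfap was 340.0 to 484 CPM in the 6 fentanyl males, 199 and 157 CPM in saline males 1 and 2, and 225 to 578 CPM in saline males 9 to 12. Its values were 1.199 ± 0.22 (adjusted p = 0.0166) and -0.03 ± 0.24. Here the second set was itself split, with 225 and 302 CPM in saline males 9 and 10 and 578 CPM in both saline males 11 and 12, so that fentanyl males lay between these pairs. Glul was 1189 to 1457 CPM in the 6 fentanyl males, 795 and 749 CPM in saline males 1 and 2, and 987 to 1855 CPM in saline males 9 to 12, with 0.79 ± 0.13 (adjusted p = 0.0127) and -0.09 ± 0.15. The other 6 had 0.54 (Ndrg2) to 0.88 (Slc7a10) against the first set and -0.55 (Slc7a10) to -0.06 (Ndrg2 and Htra1) against the second.

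F3, Slc1a3 and Apoe were lower against both sets, though against saline males 1 and 2 by little: -0.11 ± 0.16 for F3, -0.03 ± 0.21 for Slc1a3 and -0.01 ± 0.14 for Apoe. Against saline males 9 to 12 F3 had -0.58 ± 0.12 (adjusted p = 0.0517), Slc1a3 -0.17 ± 0.17 and Apoe -0.25 ± 0.11. All 6 fentanyl males lay below all 4 of saline males 9 to 12 for F3, Clu, Slc39a12 and Phgdh, 4 of the 32 genes, against 1.66% of all genes tested. All 6 lay above both saline males 1 and 2 for 15 of the 32, against 13.7% of all genes. Slc4a4, Aldh1l1, Cldn10, Ppp1r3c and Id3 were higher against both sets, by 0.01 to 0.42, and none was called.

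**Figure D3:**
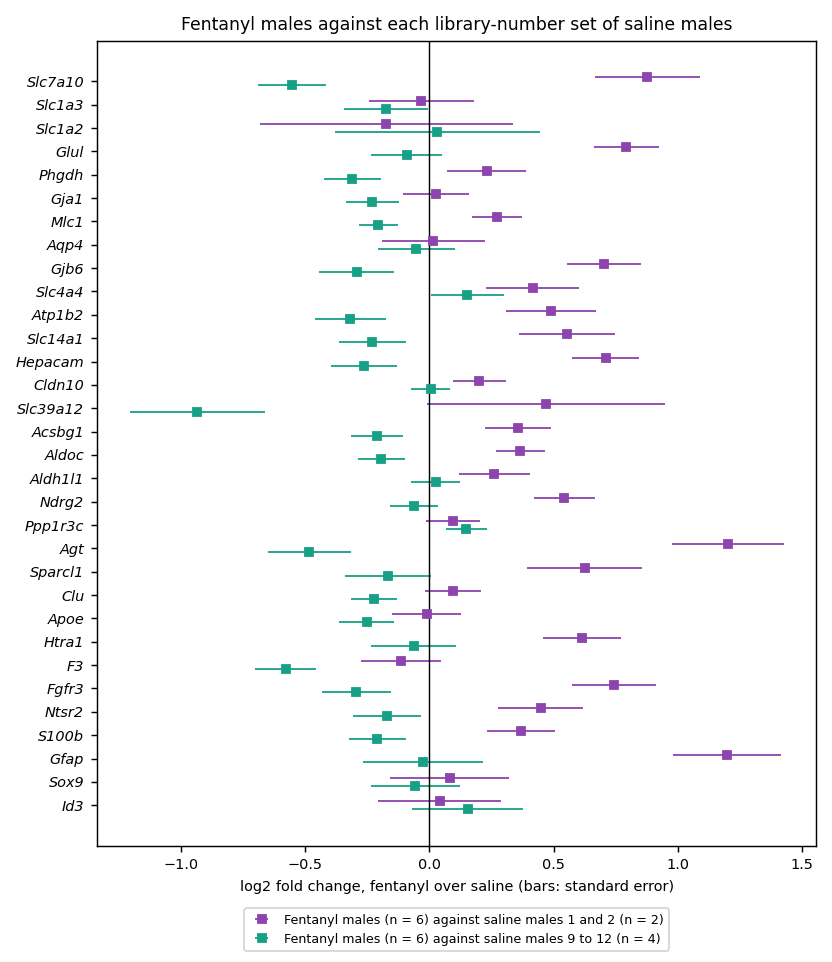
Log2 fold change with standard error of each astrocyte gene in 6 fentanyl males against saline males 1 and 2 (purple) and against saline males 9 to 12 (green). Purple squares lie mostly right of 0 (28 of 32) and green ones mostly left (26 of 32).

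The same number sets moved the comparison over both sexes. Without saline males 1 and 2, 7 of the 32 genes were called lower in the fentanyl libraries, where 2.67% of all genes were, and the median was -0.28. The 7 were Agt, F3, Fgfr3, Mlc1, Phgdh, Slc39a12 and Slc7a10. Every saline library left then had a number of 9 to 12 and every fentanyl library one of 1 to 6. Exposure and number set therefore cannot be told apart in that fit. F3 then had -0.58 ± 0.10 (adjusted p = 0.00585) and Slc7a10 -0.69 ± 0.13 (adjusted p = 0.00717). Without saline males 9 to 12 none was called, 17 were below 0 and the median was -0.01. With the number set as a term beside sex and exposure, none was called (1.22% of all genes were), 6 were below 0, the median was 0.35, and F3 had -0.11. That term rests on the 2 saline males 1 and 2, the only saline libraries with numbers under 9.

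In females, 2 against 2, all 32 log2 fold changes were below 0, against 50.6% of all genes tested, with a median of -0.54. None was called in the fit of the 4 groups, in which no gene of any kind was (0%). That fit takes its spread from all 16 libraries. Its standard errors for females are therefore not the spread among the females themselves. An unadjusted p under 0.05 was found for 16, against 14.3% of all genes. In 26 both fentanyl females were below both saline females, against 24.7% of all genes. The exceptions were Gja1, Slc1a3, Slc1a2, Sox9, Clu and Slc4a4. Leaving out 1 library moved the median between -0.72 and -0.42.

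Phgdh had the smallest p in females. It was at 43.7 and 35.1 CPM in the fentanyl females and 69.8 and 100.4 CPM in the saline females, a log2 fold change of -1.11 ± 0.24 (unadjusted p = 0.00028, adjusted p = 0.333). DESeq2 called it lower with an adjusted p of 0.0181, where it called 0.056% of all genes lower. Mlc1 came next, with 169.9 and 155 CPM in the fentanyl females against 231 and 269 CPM in the saline females, and -0.62 ± 0.19. The 3rd was Gfap, at 207 and 138 CPM in the fentanyl females against 373 and 585 CPM in the saline females, with -1.48 ± 0.51. Gfap was lower in fentanyl female 2 than in any other library.

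Large differences in females also stood at genes with a wide spread within groups over all libraries. Slc39a12 was at 7.08 and 7.99 CPM in the fentanyl females and 20.6 and 25.7 CPM in the saline females, with -1.62 ± 0.64. Agt was at 63.6 and 52.2 CPM after fentanyl against 122 and 173 CPM after saline, with -1.35 ± 0.53. These were the 2 genes called in a fit of the 4 female libraries alone, where 0.256% of all genes were called lower. That fit gave -1.61 ± 0.24 for Slc39a12 and -1.34 ± 0.23 for Agt. Sparcl1 was at 707 and 539 CPM after fentanyl against 1198 and 1288 CPM after saline, with -0.996 ± 0.35. Slc1a2 rested on 1 library: it was at 73.3 and 37.8 CPM in the fentanyl females and 44.3 and 205 CPM in the saline females, and its log2 fold change of -1.16 ± 0.62 ran from -1.88 to 0.32 when libraries were left out in turn. It turned positive without saline female 11.

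Described by role, the medians in females were -1.02 for glutamate and amino acid handling, -0.73 for secreted proteins, -0.62 for water, ion and gap junction genes, -0.60 for receptors, -0.43 for the filament, calcium-binding and transcription genes, and -0.36 for metabolism. In males the medians of the same roles lay between -0.13 and 0.09. The largest of them was that of the metabolic genes and the lowest that of glutamate and amino acid handling.

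**Figure D4:**
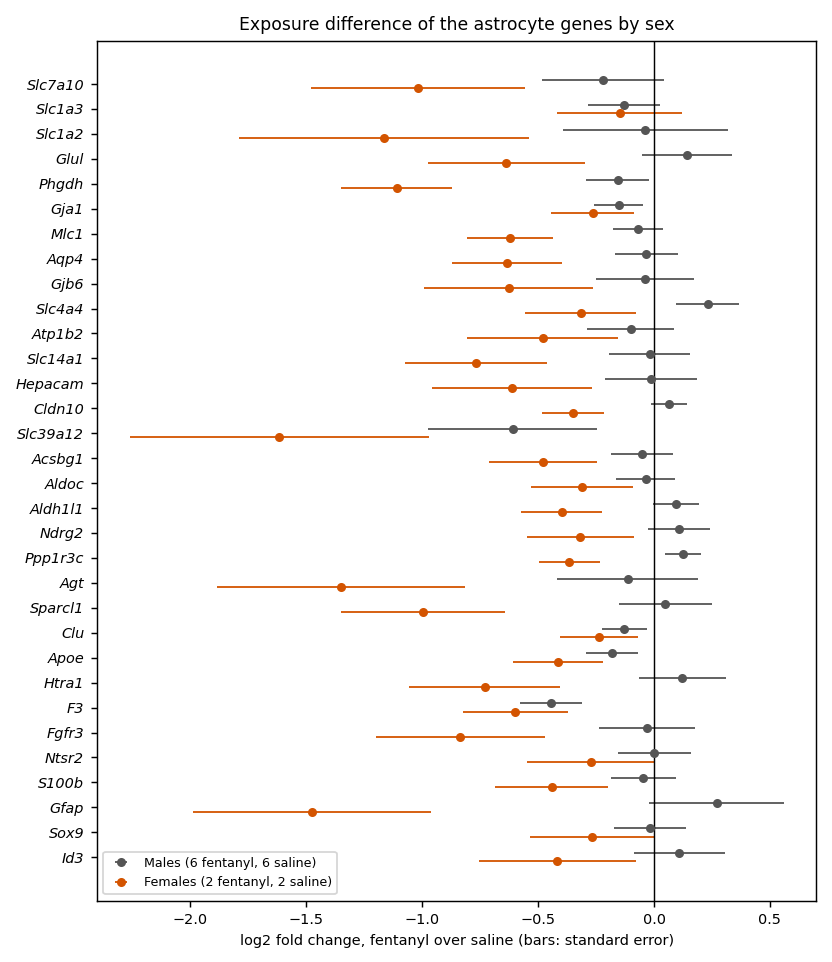
Log2 fold change (fentanyl over saline) with standard error of each astrocyte gene in males (grey) and females (orange), from 1 fit of the 4 groups. All 32 orange points lie left of 0, and 21 of 32 grey points do.

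The difference between the sexes in the exposure effect was tested itself. None of the 32 genes was called, nor was any other gene (0%), 10 had an unadjusted p under 0.05 (8.23% of all genes), and all 32 differences were below 0 (50.4% of all genes), with a median of -0.54. The smallest p were those of Phgdh, with -0.95 ± 0.27, Ppp1r3c, with -0.49 ± 0.15, and Gfap, with -1.75 ± 0.59, each at an adjusted p of 0.570. The test depended on which saline males were kept. Without saline males 9 to 12, 18 of the 32 genes were called lower, against 9.36% of all genes, with a median of -0.85. Without saline males 1 and 2, none was. In the fit with the 18 calls, the saline males had the numbers 1 and 2 and the saline females 10 and 11. A sex difference and a number set difference therefore cannot be told apart in it. Nor can they be fully told apart in the test on all 16 libraries. There the saline females had only the numbers 10 and 11, while the saline males had 1, 2 and 9 to 12.

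Females were set against males with exposure as a term. None of the 32 was called (0.056% of all genes were), 1 had an unadjusted p under 0.05 (2.52%), 24 were below 0 (50.9%), and the median was -0.05. The gene was F3, with 0.35 ± 0.13 (unadjusted p = 0.0135, adjusted p = 1). Its means were 13.8 CPM in the 4 females and 10.7 CPM in the 12 males. Sparcl1 had -0.51 ± 0.24, with means of 933 CPM in females and 1299 CPM in males, and Cldn10 -0.16 ± 0.09, with 17.1 CPM in females and 19.1 CPM in males.

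Within groups the astrocyte genes varied about as much as other genes, with a median SD of 0.28 on the log2 scale, against 0.29 over all genes tested. Slc39a12 (0.80), Slc1a2 (0.75), Agt (0.63), Gfap (0.56) and Slc7a10 (0.54) varied most, and Cldn10 (0.10) and Ppp1r3c (0.11) least. Slc1a2 spanned 24.7 to 205 CPM over the 16 libraries, a range of 3.05 on the log2 scale, while Ppp1r3c spanned 30.1 to 40.0 CPM, a range of 0.41. The high and low ends were held by few libraries. Saline male 11 was highest for 12 of the 32 genes, where it was highest for 5.90% of all genes, and saline female 11 for 10, where it was highest for 9.62%. Fentanyl female 2 was lowest for 11, where it was lowest for 12.8% of all genes, and saline male 2 for 10, where it was lowest for 8.52%.

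A further 97 astrocyte genes, chosen by name for the same functions, were read beside the 32, and 94 of them passed the filter. None was called over both sexes, in males or in females. Of the 94, 72 were below 0 over both sexes (52.3% of all genes tested), with a median of -0.10. In males 50 were (51.7% of all genes), with a median of -0.01, and in females 74 (50.6%), with a median of -0.32. An unadjusted p under 0.05 was found for 5 over both sexes (7.27% of all genes), 2 in males (4.13%) and 22 in females (14.3%). All 22 in females were below 0. Over both sexes the smallest p in each group belonged to Hes1, a Notch target (-0.50 ± 0.17, adjusted p = 0.498), Timp1, a protease inhibitor of reactive astrocytes (-0.53 ± 0.18), Cbs, an enzyme of sulfur amino acids (-0.23 ± 0.11), Mertk, a phagocytic receptor (-0.37 ± 0.19), Slc9a3r1, a scaffold protein (-0.17 ± 0.10), and Slc25a18, a mitochondrial glutamate carrier (-0.62 ± 0.44). In females they belonged to Cp, a copper-binding ferroxidase (-1.20 ± 0.31), the cholesterol transporter gene Abca1 (-0.98 ± 0.29), Mertk (-0.99 ± 0.34), the metabotropic glutamate receptor gene Grm3 (-1.04 ± 0.39), the potassium channel gene Kcnj16 (-1.52 ± 0.62) and the transcription factor gene Zbtb20 (-0.60 ± 0.22). In males they belonged to Etnppl (0.30 ± 0.13), Hes1 (-0.44 ± 0.20), P2ry1 (-0.49 ± 0.25), C3 (0.60 ± 0.31), Slc9a3r1 (-0.21 ± 0.12) and Ntm (0.23 ± 0.13).

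Markers of other cells moved with the same libraries. The 15 myelin markers, made by oligodendrocytes, summed to 15219 to 35771 CPM in the 6 fentanyl males, 7619 and 10249 CPM in saline males 1 and 2, and 11903 to 34449 CPM in saline males 9 to 12. Of the fentanyl males only fentanyl male 2 was above 22224 CPM, and of saline males 9 to 12 only saline male 9 was below 23793 CPM. In females the myelin markers summed to 19790.4 and 8453 CPM after fentanyl and 26398 and 26698 CPM after saline. Of the 4 libraries with the lowest sums of astrocyte genes, saline males 1 and 2 and fentanyl female 2 also had the lowest sums of myelin markers. The other, fentanyl female 1, with 8817 CPM of astrocyte genes, had a myelin sum above those of fentanyl males 1, 4 and 5. The 12 microglia markers were lowest in saline males 1 and 2 and fentanyl female 2, with 515 to 641 CPM in the 6 fentanyl males, 446 and 493 CPM in saline males 1 and 2, 570 to 768 CPM in saline males 9 to 12, 435 and 515 CPM in fentanyl females and 628 and 730 CPM in saline females.

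The 14 markers of medium spiny neurons of the striatum, which borders the central amygdala, ran the other way. They summed to 5617 to 8723 CPM in the 6 fentanyl males, 6604 and 9109 CPM in saline males 1 and 2, and 2460 to 4290 CPM in saline males 9 to 12. In females they summed to 8268 and 11022 CPM after fentanyl and 5112 and 5837 CPM after saline. All 14 were above 0 over both sexes, with a median of 0.52, and none was called. The 13 general neuron markers summed to 5928 to 6622 CPM in fentanyl males and 5399 to 6138 CPM in saline males. In females they summed to 6022 and 6294 CPM after fentanyl and 5406 and 5481 CPM after saline. Over both sexes 9 of the 13 were above 0, with a median of 0.03, and none was called. With the means of the myelin and striatal lists as covariates, the median of the 32 astrocyte genes over both sexes was -0.02, 18 were below 0 and none was called. The part of tissue make-up in the differences was not tested beyond these values.

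**Figure D5:**
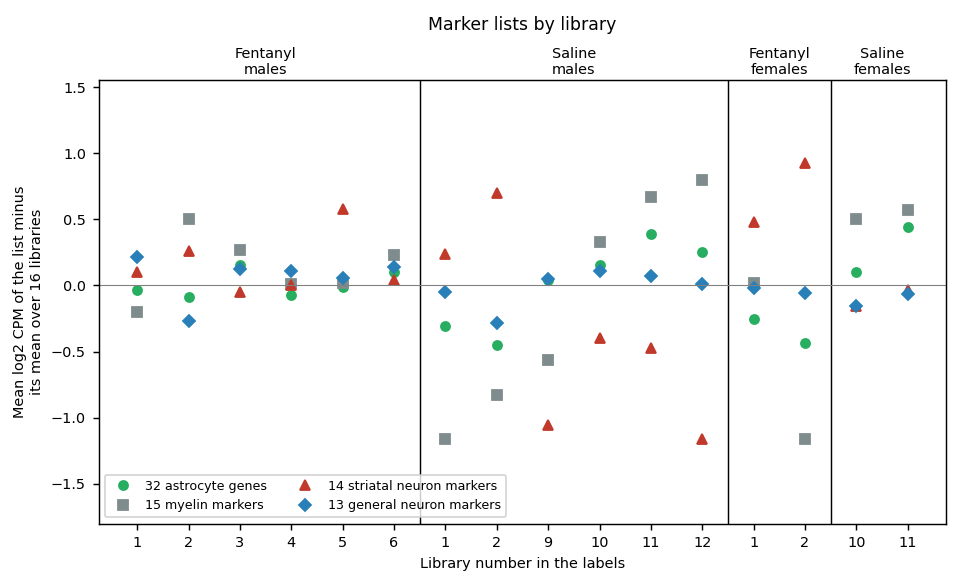
Mean log2 CPM of the 32 astrocyte genes (circles), 15 myelin markers (squares), 14 striatal neuron markers (triangles) and 13 general neuron markers (diamonds) in each library, minus the mean of that list over all 16 libraries. In saline males 1 and 2 the astrocyte and myelin means lie below 0 and the striatal mean above it, and in saline males 10 to 12 the other way round.

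The remaining marker lists gave no gene past the threshold over both sexes, in males or in females. Over both sexes the medians were -0.20 for oligodendrocyte precursors (8 of 9 below 0, smallest p for Cspg4), 0.09 for endothelium (Cldn5), -0.09 for mural cells (Mylk), 0.26 for meningeal fibroblasts (Dcn, 0.56 ± 0.16), -0.47 for ependyma (Dnah5), -0.23 for choroid plexus (Prlr), -0.39 for central amygdala neurons (Gal), -0.90 for cortical and basolateral neurons (Neurod6) and -0.37 for thalamic, hypothalamic and pallidal neurons (Tcf7l2). Those of microglia and myelin were -0.22 (12 of 12 below 0, P2ry12) and -0.18 (14 of 15 below 0, Mog), and among neuron markers Thy1 had the smallest p (0.25 ± 0.08). Saline male 9 stood apart in the cortical and basolateral list, at 141 CPM where every other library had 20.6 to 54.0 CPM. The median sum of that list was 41.1 CPM after fentanyl and 33.6 CPM after saline. Saline male 9 was also highest for central amygdala markers (405 CPM) and ependyma (42.3 CPM). Saline male 1 came next in both, at 259 and 29.5 CPM. The median sum of central amygdala markers was 152 CPM after fentanyl and 147 CPM after saline. Their median log2 fold change was -0.41 in males and 0.76 in females. Endothelial markers were highest in fentanyl male 2, at 452 CPM, where the other fentanyl males had at most 257 CPM.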

How the data were processed

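RNA of 16 rats was measured by RNA-seq. Trizol extraction was followed, per the labels' protocols, by library preparation from poly(A) RNA with NEBNext reagents. The submitters' processing notes name Trimmomatic, STAR, HTSeq, DESeq2 and the build rn7. Tool versions, annotation and strandedness: not given in the sources used here. Overlapping genes may therefore share reads. The values deposited by the authors are raw counts, whole numbers of reads per gene with no normalization, and each column carries a library name that the labels tie to a sample. No library repeated another (chi-square per gene at least 4.08 in all 120 pairs).

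The tests used edgeR 4.0.16 (R 4.3.3). Genes passing filterByExpr for the 4 groups (minimum 0.603 CPM) were kept, TMM factors scaled the libraries, and glmQLFit (robust) with glmQLFTest gave fold changes, whose standard error is their size over the root of F. Sex was a term in the comparison over both sexes and exposure in that of the sexes, and the others were contrasts of the 4 groups. Benjamini-Hochberg adjustment covered all genes tested, at a threshold of 0.05. CPM used TMM-scaled library sizes, and log2 CPM a prior count of 2. The steps were tested on simulated counts.

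The members and lists were chosen with earlier results of these data known. All 32 genes were named over both sexes, elsewhere those past the threshold or else the 3 with the smallest p, and in each other list the gene with the smallest p. A gene that this rule would name is not reported here. Genes of larger difference in females and against the library-number sets were added after their values were seen. Of 267 entries in 25 lists, 2 were not found. The alternatives tried were DESeq2 1.42.0, RLE factors, all genes with a count, voom (limma 3.58.1), no sex term, the replicate number as a block, surrogate variables (sva 3.50.0), the library-number set or marker lists as terms, 1 sex alone, subsets of saline males, and each library left out. Crossed female numbers were added after seeing the data. Raw reads were not used here.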

Additional observations from a re-analysis of the deposited data

Results flagged for a closer look

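For each of the 32 genes the 2 groups of 6 males were searched for a library that stood far from the other 5, 64 searches in all, of which chance flags about 1 in 20. It found 5, and 4 of them were fentanyl male 2, the library with the highest share of mitochondrial counts (17.7%) and the highest sum of endothelial markers (452 CPM). In that library Slc1a3 was lowest, at 222 CPM where the other fentanyl males had 354 to 401 CPM. Slc1a2 was lowest, at 24.7 CPM where the others had 70.5 to 93.7 CPM, and Clu was lowest, at 304 CPM where the others had 352 to 373 CPM. Sox9 was highest there, at 43.9 CPM where the others had 21.9 to 24.8 CPM. Sox9 was also highest in saline male 12, at 33.0 CPM, where the other saline males had 25.1 to 27.2 CPM.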

How the results depend on the processing

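None of the 32 genes was called in the tests as reported, so no call could be lost or reversed. The count of 0 genes called moved over both sexes to 1 with DESeq2, 5 with voom and 7 without saline males 1 and 2, in males to 1 with voom and 9 without saline males 9 to 12, in females to 1 with DESeq2 and 2 with females alone, and for the difference between the sexes to 18 without saline males 9 to 12. Medians of the 32 moved over both sexes to 0.35 with the number set as a term, in males to 0.37 and for the difference between the sexes to -0.85 without saline males 9 to 12. With surrogate variables the median over both sexes was 0.01, with 15 genes below 0. Leaving out each library in turn gave 0 genes called in every comparison, with medians of -0.22 to -0.10 over both sexes, -0.12 to 0.04 in males, -0.72 to -0.42 in females, -0.67 to -0.40 for the difference between the sexes and -0.17 to 0.05 for the sexes. Most of the 896 values of single genes over both sexes came from the 16 fits with 1 library left out. Of the 896, 857 stayed within the spread and on their side of the threshold, 26 moved beyond the spread and 13 passed the threshold. The sign changed for 23 genes with the number set as a term, 16 with surrogate variables, 13 with the marker lists as covariates and 14 without saline males 9 to 12. The cause was not tested.

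Over all genes, 14 were called over both sexes, against 87 with DESeq2, 1031 with voom, 83 with surrogate variables, 218 with the number set as a term, 1226 without saline males 1 and 2, 4 without saline males 9 to 12 and 9 to 29 with 1 library left out. In males 7 were called, against 43 with DESeq2, 87 with voom, 71 without saline males 1 and 2 and 955 without saline males 9 to 12. In females 0 were called, against 20 with DESeq2 and 65 with females alone, and for the difference between the sexes 0, against 4 with DESeq2 and 2859 without saline males 9 to 12. The sample titles carry replicate numbers of their own, 1 to 6 in each male group and 1 and 2 in each female group, which differ from the library numbers in most saline libraries. Libraries with the same replicate number did not all deviate together (correlations of -0.07 to 0.21 in males and -0.17 in females, and 2 libraries closest to their own number), so the replicate numbers are not taken as pairs. With the replicate block no astrocyte gene was called, the median over both sexes was -0.14, and 2 genes of all were called over both sexes and 3 in males. With the female replicate numbers crossed, chosen after seeing the data, 16 genes of all and 0 of the 32 were called.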
